A study of Homo sapiens with 6 samples.

Results

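The pentose phosphate pathway enzymes described here were the 8 genes H6PD, PGLS, PGD, RPIA, RPE, TKT, TKTL1 and TALDO1, out of 44591 genes listed in each library. They were taken by gene symbol, a rule that itself uses no measured value. The set of members was, however, chosen with earlier results of these data known. RNA was collected from A2780 cells, an established human ovarian cancer cell line of wild-type genotype, and the polyadenylated fraction was sequenced. The 3 untreated libraries came from cells grown in DMEM with fetal bovine serum. The 3 r-CRMP2 libraries came from cells to whose medium human recombinant CRMP2 had been added at 40 ng/ml for 48 h. CRMP2 is a protein that binds tubulin, here applied from outside the cell, and the comparison asks how the RNA of A2780 cells differed after that exposure. The samples are called replicates by the submitters, with no statement on whether they were separate cultures. The p-values therefore set the group difference against the spread between libraries of a group, and that spread may be technical. All 6 libraries are from 1 cell line.

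The pentose phosphate pathway runs beside glycolysis and starts from glucose 6-phosphate. Its oxidative arm makes NADPH, the electron donor for lipid synthesis and for keeping glutathione and thioredoxin reduced, and ends in a pentose phosphate. The non-oxidative arm interconverts sugar phosphates reversibly, so that ribose 5-phosphate can be made for nucleotides or carbon can return to glycolysis, and transketolase and transaldolase carry out its exchange steps. In tumour cells the pathway is known as a supply of both NADPH and ribose.

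Transketolase, encoded by TKT, and 6-phosphogluconate dehydrogenase, encoded by PGD, rose with r-CRMP2 when libraries were scaled by TMM, which sets them to a common level through the bulk of genes. TKT rose by 34.6% and PGD by 17.2% in mean CPM, the unit of read counts relative to the scaled library total. H6PD, PGLS, RPIA, RPE and TALDO1 did not pass the test, and TKTL1 had too few counts to be tested. No member changed by more than 1 on the log2 scale. The rise of PGD was tied to the scaling: with library size alone its log2 fold change was -0.08, against 0.23 with TMM, while that of TKT was 0.12, against 0.43.

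Each library held between 21888530 and 25711353 counts, and the 8 genes together took between 0.170% and 0.181% of them. The TMM factors were between 1.10 and 1.12 for untreated and between 0.878 and 0.922 for r-CRMP2 libraries, so the scaling differed with the group. The share of counts on the mitochondrial chromosome also moved with the group, between 6.19% and 6.59% in untreated and between 3.76% and 4.10% in r-CRMP2 libraries, and its part in the results was not tested. Of 10 ovarian epithelial markers, 8 had a mean of at least 1 CPM, while WT1 and CDH1 did not. Their summed level was between 3417 and 3533 CPM in untreated and between 3537 and 3824 CPM in r-CRMP2 libraries. With TMM, 2 of 8 tested genes were called higher and 2 lower. Over all genes tested 28.2% were called higher and 30.1% lower, which is also the background for the next marker lists. Of 10 fibroblast markers, 9 reached that mean, with a sum between 554 and 631 CPM in untreated and between 477 and 497 CPM in r-CRMP2 libraries. That list did not move one way: of 9 tested with TMM, COL1A2, LUM and PDGFRA were called higher and COL1A1, POSTN and PDGFRB lower, with a median log2 fold change of 0.21, and COL1A1 alone went from a mean of 419 to 316 CPM. Of 7 immune and endothelial markers, CD68 and CDH5 were among those that reached it, PTPRC and CD3E were at group means of at most 0.113 CPM, and the sum was between 30.3 and 34.1 CPM in untreated and between 75.4 and 82.1 CPM in r-CRMP2 libraries. CD68 made up the rise of that sum, from a mean of 23.1 to 74.3 CPM, while CDH5 fell from 5.29 to 1.35 CPM, and the median log2 fold change of the 5 tested was -0.45. COL1A2, LUM and CDH5 fall outside the rule for named genes and were chosen after their values were seen. No marker was at 0 in all 6 libraries, the part of these markers in the results was not tested, and in bulk RNA a change in the number of cells of a type cannot be told apart from a change in RNA per cell.

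The promoter windows of PGD and TKT, the members that rose, are printed to show the sequence at their start sites. They are taken from RefSeq on build GRCh38.p14, from 250 bases before to 50 after the gene start, and read 5′ to 3′ on the gene's strand. The PGD window is chr1:10398814-10399113 on the plus strand and the TKT window is chr3:53255973-53256272 on the minus strand. Capitals mark matches on either strand to ACGTG and to TGACNNNGC. ACGTG is a form of the core of hypoxia response elements, and TGACNNNGC is the core of antioxidant response elements. The form GCGTG was not searched and is not marked.
PGD: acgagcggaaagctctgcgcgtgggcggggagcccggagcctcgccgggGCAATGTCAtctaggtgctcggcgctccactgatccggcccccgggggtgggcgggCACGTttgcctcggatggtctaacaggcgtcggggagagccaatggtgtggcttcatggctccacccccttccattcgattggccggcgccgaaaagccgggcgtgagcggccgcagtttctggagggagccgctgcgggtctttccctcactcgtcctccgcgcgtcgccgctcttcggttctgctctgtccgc
TKT: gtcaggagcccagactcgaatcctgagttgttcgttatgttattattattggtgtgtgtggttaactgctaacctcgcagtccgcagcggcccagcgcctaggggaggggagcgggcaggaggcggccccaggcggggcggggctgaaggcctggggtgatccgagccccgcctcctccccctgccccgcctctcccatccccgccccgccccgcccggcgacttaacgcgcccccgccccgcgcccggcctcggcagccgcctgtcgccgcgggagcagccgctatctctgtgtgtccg
The PGD window held 1 match to ACGTG, starting at position -145 from the gene start, and 1 match to TGACNNNGC, starting at position -201, both on the strand opposite to the one printed. The TKT window held neither. Among 35116 promoter windows of the same length, 21.4% held ACGTG, 13.3% held TGACNNNGC, and 7.26% held CACGTG, the E-box, which itself contains ACGTG. Of the other members, RPE had 1 match to TGACNNNGC, starting at position -151. H6PD, PGLS, RPIA, TALDO1 and both windows of TKTL1 held none of these motifs. The windows are on another build than the deposited gene positions, and their match to the starts of the genes as counted was not checked. The H6PD window in particular may lie at the start of another transcript. A match is a run of letters in the window and not a measured binding site.

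**Figure D1:**
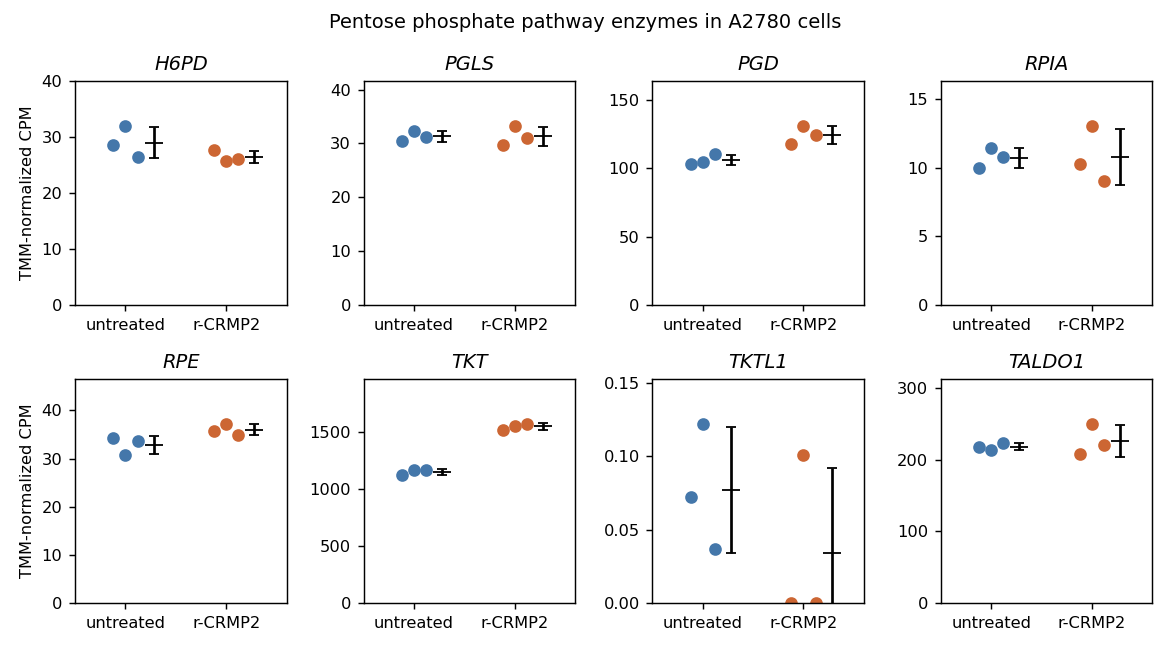
Each panel shows 1 gene, with TMM-normalized CPM on a linear axis from 0, points for the 3 untreated and 3 r-CRMP2 libraries, and the mean with its SD beside them. TKT lies between 1124 and 1167 CPM in untreated and between 1520 and 1577 CPM in r-CRMP2 libraries. PGD and RPE are the other genes with all r-CRMP2 points above all untreated points under this scaling. Such a lack of overlap held for 30.9% of all genes tested. With library size alone the fold change of PGD and of RPE was negative.

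In the oxidative arm, H6PD encodes hexose-6-phosphate dehydrogenase, an enzyme of the endoplasmic reticulum lumen that carries out the first steps of the oxidative arm there and supplies NADPH in that compartment. Its deposited position is 1:9294863-9331396 on the plus strand in the hg19 build named by the submitters. The normalized level was 28.7, 32.0 and 26.4 CPM in untreated libraries 1 to 3, and 27.8, 25.8 and 26.1 CPM in r-CRMP2 libraries 1 to 3. The groups overlapped, since r-CRMP2 library 1 lay above untreated library 3. The log2 fold change was -0.13 with a standard error of 0.09 and an adjusted p of 0.206 (edgeR's quasi-likelihood test, Benjamini-Hochberg). Under library size alone it was -0.44 with an adjusted p of 0.000416 in edgeR, so the call depended on the scaling.

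PGLS encodes 6-phosphogluconolactonase, which opens the lactone made in the first oxidative step, and lies at 19:17622432-17632097 on the plus strand. Its level was 30.4, 32.4 and 31.1 CPM in the untreated and 29.7, 33.3 and 31.0 CPM in the r-CRMP2 libraries. The highest and the lowest value were both in r-CRMP2 libraries. The log2 fold change was 0.0015 with a standard error of 0.05 and an adjusted p of 0.989 in the edgeR test, and it was -0.31 with library size alone. Listed genes that overlap it are an antisense RNA with 19 counts and a long intergenic RNA with 475 counts over the 6 libraries. The 4498 counts of PGLS cannot be fully separated from these, because the use of strand in counting is not given in the sources used here.

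PGD encodes 6-phosphogluconate dehydrogenase, which makes NADPH and ribulose 5-phosphate in the last oxidative step, and lies at 1:10459049-10480568 on the plus strand. Its level was 103, 104 and 111 CPM without treatment and 118, 131 and 125 CPM with r-CRMP2. Every r-CRMP2 library was above every untreated library, with the smallest gap between untreated library 3 and r-CRMP2 library 1. The means were 106 ± 3.94 and 124 ± 6.78 CPM (SD, n = 3 each). The log2 fold change was 0.23 with a standard error of 0.05 and an adjusted p of 0.00466 in the same edgeR test. Scaled by library size alone, PGD was not called and had the other sign, with an adjusted p of 0.241 in edgeR. The 2 listed PGD pseudogenes, PGDP1 and PGDP2, had 1 count each, against 16433 for PGD.

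In the non-oxidative arm, RPIA encodes ribose 5-phosphate isomerase, which makes ribose 5-phosphate from ribulose 5-phosphate, and lies at 2:88991176-89050452 on the plus strand. It was the least abundant of the tested members in CPM, with between 207 and 295 counts per library. Its level was 9.96, 11.4 and 10.8 CPM in untreated and 10.3, 13.0 and 9.01 CPM in r-CRMP2 libraries. The r-CRMP2 group spanned the untreated group on both sides. The log2 fold change was 0.0052 with a standard error of 0.16 and an adjusted p of 0.976 in the edgeR test, the widest error among the tested members. Under library size alone it was -0.31, with an adjusted p of 0.0513 in edgeR.

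RPE encodes ribulose-phosphate 3-epimerase, which makes xylulose 5-phosphate, a substrate of transketolase, and lies at 2:210867289-210886984 on the plus strand. Its level was 34.2, 30.7 and 33.6 CPM in untreated and 35.8, 37.3 and 35.0 CPM in r-CRMP2 libraries. The groups did not overlap, but the log2 fold change of 0.13, with a standard error of 0.06, had an adjusted p of 0.143 in the same edgeR test. Scaling by library size alone gave -0.18 with an adjusted p of 0.0481 in edgeR. The near-identical copies RPEL1, RPEP3 and RPEP4 had 2, 1 and 13 counts over the 6 libraries, against 4927 for RPE. The end of RPE overlaps KANSL1L on the other strand, which had 733 counts.

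TKT encodes transketolase, the thiamine-dependent enzyme that moves 2-carbon units between sugar phosphates, and lies at 3:53258723-53290130 on the minus strand. Its level was 1124, 1167 and 1167 CPM without treatment and 1520, 1558 and 1577 CPM with r-CRMP2. The untreated libraries lay close together, and the lowest r-CRMP2 library was far above the highest untreated one. The means were 1153 ± 24.7 and 1552 ± 29.0 CPM (SD, n = 3 each), a fold of 1.35. The log2 fold change was 0.43 with a standard error of 0.02 and an adjusted p of 5.58e-06 in the same edgeR test. It was 0.12 under library size alone, with an adjusted p of 0.0472 in edgeR. TKT was the 1 member called higher under that scaling, where H6PD, PGLS, RPE and TALDO1 were called lower. Over all genes tested, 13.4% were called higher and 52.1% lower under it.

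TKTL1, which encodes a transketolase-like protein, lies at X:153524027-153558713 on the plus strand. It had 2, 3 and 1 counts without treatment and 0, 2 and 0 counts with r-CRMP2. It stayed under the low-count filter, and no difference could be detected at this depth. TKTL2, the other listed gene of the family, had 9 counts over the 6 libraries, TKTL1 had 8 and TKT had 191342. TKTL1 thus made up at most 0.0105% of the family's counts in any library, with a 95% Clopper-Pearson interval from 0.00216% to 0.0306% in that library, untreated 2. Counts of 0 in r-CRMP2 libraries 1 and 3 allow shares of up to 0.00924% and 0.00828%, taking 3 counts as the limit. By the 95% Clopper-Pearson interval the upper limits in these libraries were 0.0114% and 0.0102%. These bounds cover counting error only.

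TALDO1 encodes transaldolase, which moves 3-carbon units between sugar phosphates, and lies at 11:747432-765024 on the plus strand. Its level was 218, 213 and 224 CPM in untreated and 208, 251 and 220 CPM in r-CRMP2 libraries. The groups overlapped, and r-CRMP2 library 2 stood above the other libraries. The log2 fold change was 0.05 with a standard error of 0.08 and an adjusted p of 0.549 in the edgeR test, and it was -0.02 without r-CRMP2 library 2. Library size alone gave -0.26 with an adjusted p of 0.00133 in edgeR. Its pseudogene TALDO1P1 had 0 counts.

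Of the 7 members tested, 2 were called higher and 0 lower at an adjusted p under 0.05, where 28.2% of the 16222 genes tested were called higher and 30.1% lower by edgeR. At an unadjusted p under 0.05 the counts were again 2 higher and 0 lower, where 29.8% of all genes tested were higher and 32.2% lower. DESeq2 also called 2 higher and 0 lower, where it called 28.1% of genes higher and 26.8% lower. The share of members called higher was thus near the background under each of these rules. With the added demand of a log2 fold change over 1, 0 members were called higher or lower, where 5.12% of all genes tested were called higher and 8.86% lower. In CPM, 3 tested members had all r-CRMP2 libraries above all untreated ones, which held for 30.9% of all genes tested, and 0 had them below, which held for 33.3%. The median log2 fold change was 0.05 over the 7 members and -0.03 over all genes tested. With library size alone the median over all genes was -0.34, 13.4% of genes were called higher and 52.1% lower, and 1 member was higher and 4 were lower. Set against the median of all genes, H6PD was below and the other 6 tested members above it under both scalings, which was not tested.

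**Figure D2:**
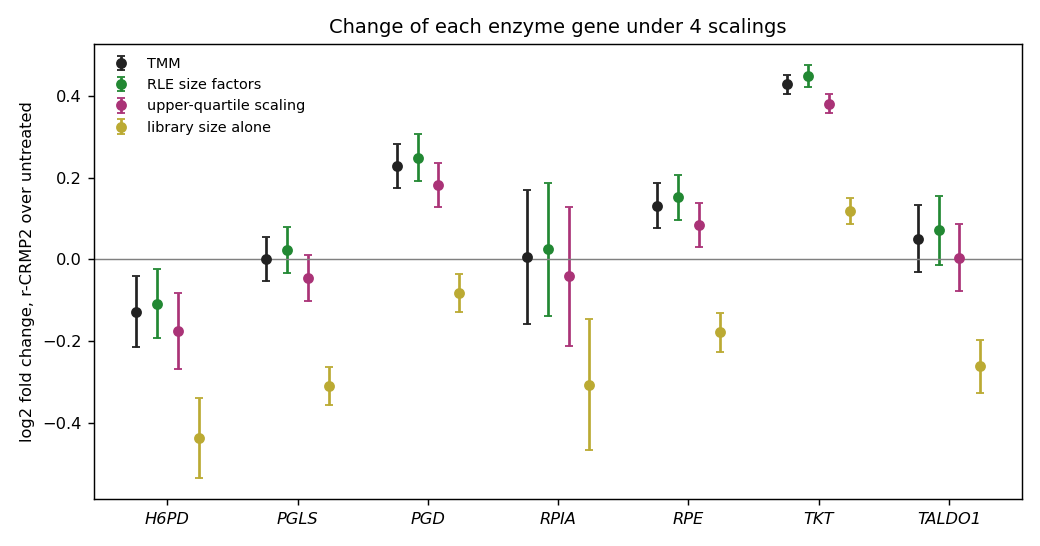
The vertical axis is the log2 fold change of r-CRMP2 over untreated for each of the 7 tested genes under 4 scalings, with bars for 1 standard error. TKT is above 0 under each, from 0.12 with library size alone to 0.45 with RLE size factors, whereas PGD turns to -0.08 with library size alone.

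Levels can be compared between genes only per length, and TPM, the counts divided by gene length and rescaled to 1 fixed total per library, were used for that. TPM keep no TMM scaling, so a TPM difference between groups also holds the shift of the whole library. In this unit TKT was at 909 ± 32.5 in untreated and 976 ± 39.2 in r-CRMP2 libraries (SD, n = 3 each). The groups overlapped narrowly, with untreated library 2 at 931.4 and r-CRMP2 library 2 at 931.0 TPM. Among all genes TKT ranked between 143 and 145 in untreated and between 148 and 159 in r-CRMP2 libraries. TALDO1 came next, at 429 ± 11.1 and 353 ± 17.2 TPM. The order then went through PGD at 102 ± 4.52 and 94.9 ± 1.28 TPM and PGLS at 73.8 ± 3.36 and 58.9 ± 0.613 TPM. These enzymes of the oxidative arm were thus below both exchange enzymes of the non-oxidative arm in every library. RPE was at 22.8 ± 1.05 and 20.0 ± 0.608 TPM, RPIA at 14.2 ± 1.17 and 11.4 ± 1.74 TPM and H6PD at 7.62 ± 0.801 and 5.56 ± 0.464 TPM. TKTL1 was last, with values from 0 to 0.104 TPM. No neighbouring pair in this order overlapped between genes within a group.

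**Figure D3:**
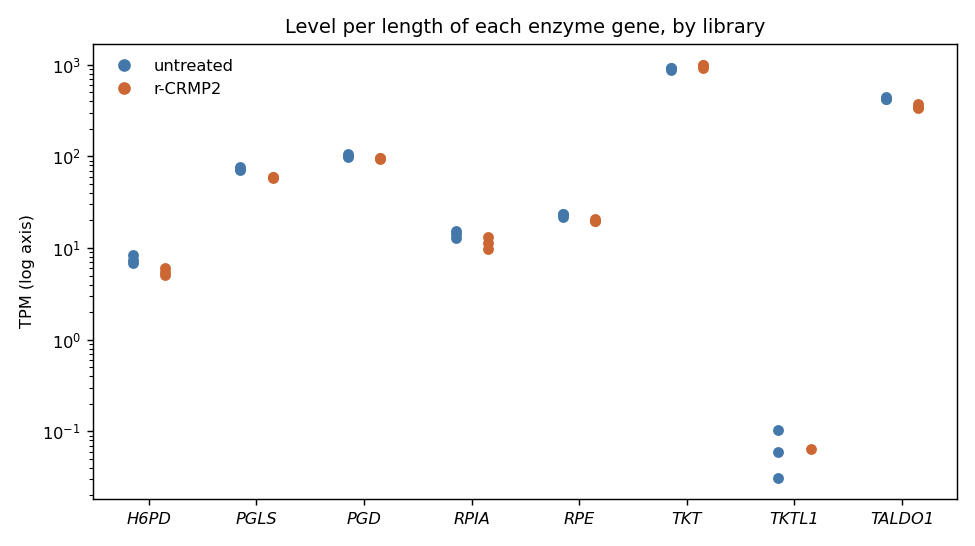
Level of each gene per length in TPM, on a log axis, with 1 point per library for the untreated and r-CRMP2 groups; the 2 r-CRMP2 libraries with 0 counts of TKTL1 cannot be drawn on this axis. The genes keep 1 order in both groups, from TKT between 872 and 1002 TPM down to TKTL1 at 0.104 TPM or less.

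TKT took most of the summed TPM of the 8 genes. Its share was 57.9%, 59.0% and 58.1% without treatment and 65.3%, 62.2% and 65.1% with r-CRMP2. The groups did not overlap. The share of TALDO1 went from 27.5% ± 0.617 to 23.3% ± 1.44 and that of PGLS from 4.74% ± 0.135 to 3.87% ± 0.0862 (SD, n = 3 each). The share of PGD went from 6.53% ± 0.148 to 6.25% ± 0.114, with all r-CRMP2 libraries below all untreated ones. The shares add up to the whole, so a higher share of TKT lowers the others. The summed TPM of all 8 was between 1504 and 1590 in untreated and between 1496 and 1539 in r-CRMP2 libraries, which overlap. Without TKT it was between 633 and 666 in untreated and between 529 and 565 in r-CRMP2 libraries, which do not overlap. These sums have no TMM scaling, and the median log2 fold change of all genes with library size alone was -0.34. With TMM, 0 members were called lower.

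Ratios of counts within a library do not depend on how libraries are scaled against each other. TKT was higher relative to each of the other 6 tested members in all r-CRMP2 libraries than in any untreated library. The log2 ratio of TKT to TALDO1 was 2.36, 2.45 and 2.38 in untreated and 2.87, 2.64 and 2.84 in r-CRMP2 libraries. The change in log2 ratio was 0.56 ± 0.09 (SE) against H6PD, 0.43 ± 0.04 against PGLS, 0.20 ± 0.04 against PGD, 0.44 ± 0.16 against RPIA, 0.30 ± 0.07 against RPE and 0.38 ± 0.08 against TALDO1. The smallest of these was against PGD. These ratios share TKT and are not independent of each other, and the same lack of overlap was found for TKT against 62.9% of the other 16221 genes tested.

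PGD was higher relative to H6PD, PGLS and TALDO1 without overlap between the groups, with changes in log2 ratio of 0.35 ± 0.13, 0.23 ± 0.04 and 0.18 ± 0.04 (SE). Against RPIA, at 0.23 ± 0.15, and RPE, at 0.09 ± 0.06, the groups overlapped. For PGD, 47.3% of the other genes tested showed ratios without overlap in this direction. In all, 11 ratios were compared, and for the 9 without overlap the exact two-sided permutation test gave p = 0.1, the smallest it can give for 3 against 3, and 0.122 after Benjamini-Hochberg adjustment over the 11. The design cannot reach 0.05 with this test.

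**Figure D4:**
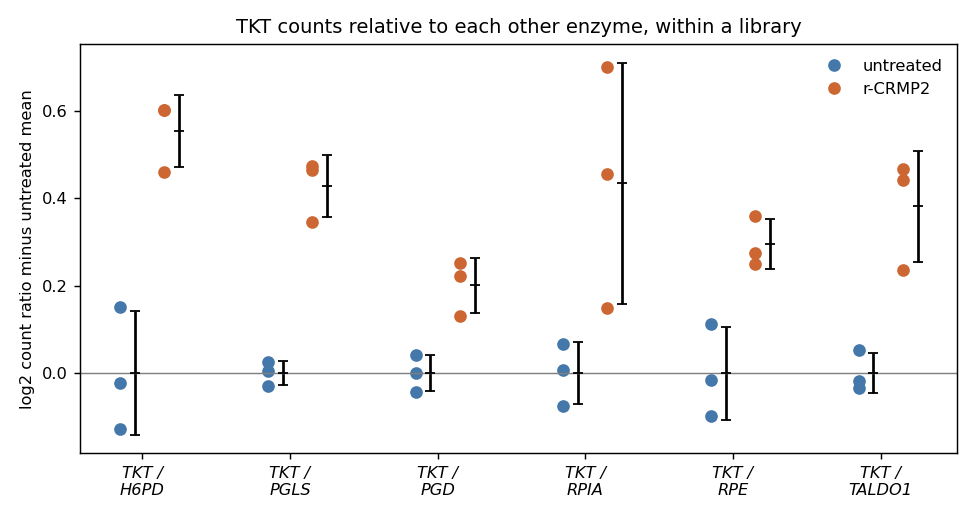
The vertical axis is the log2 ratio of TKT counts to those of each other tested enzyme within a library, minus the untreated mean, with points for libraries and bars for the mean and SD of each group. All r-CRMP2 points lie above all untreated points for the 6 ratios, with mean changes from 0.20 for PGD to 0.56 for H6PD. The same was found for TKT against 62.9% of the other genes tested.

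Lists of genes that feed or flank the pathway held larger changes, given here as a description with no test between lists. The counts in this and each following list are to be set against all genes tested. Of those, 28.2% were called higher and 30.1% lower with TMM, and 13.4% and 52.1% with library size alone. Several list counts are near these shares and are not read as results about a list. Of 20 other pentose phosphate genes, a list that includes shared glycolytic enzymes, 14 were tested, 9 rose and 2 fell, with a median log2 fold change of 0.34. Under library size alone 4 were higher and 4 lower, and the median was 0.032. GPI, which links glucose 6-phosphate to glycolysis, went from 1462 ± 93.5 to 2968 ± 126 CPM, a log2 fold change of 1.02 (SE 0.06). The aldolases ALDOA and ALDOC changed by 1.05 (SE 0.08) and 1.06 (SE 0.10) on the same scale. TIGAR, a phosphatase that lowers fructose 2,6-bisphosphate, fell from 12.5 ± 1.18 to 3.84 ± 0.288 CPM, a log2 fold change of -1.70 (SE 0.10, adjusted p of 3.64e-09 in edgeR's quasi-likelihood test). These 4 genes kept their direction with library size alone. The count of genes that fell was 1 without untreated library 3, and likewise without r-CRMP2 library 1 or 3. Besides TIGAR, the other gene that fell was at a low level, with a mean of 0.76 CPM over all libraries.

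Among 17 tested genes of ribose 5-phosphate use and purine synthesis, 9 rose and 3 fell, with a median of 0.19. Under library size alone 2 were higher and 6 lower, and the median was -0.12. PRPS1, which makes the activated ribose PRPP from ribose 5-phosphate, had a log2 fold change of 0.46 (SE 0.06), and was not called with library size alone, with an adjusted p of 0.0572 in edgeR. PPAT, the first committed enzyme of purine synthesis, had 0.64 (SE 0.06) and ADSSL1, an adenylosuccinate synthase, 0.85 (SE 0.09). PFAS, a later enzyme of the same route, fell, with -0.74 (SE 0.09). Without r-CRMP2 library 2 the number lower was 5.

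Of 16 pyrimidine and deoxynucleotide synthesis genes, 4 rose and 8 fell, with a median of -0.20, and 1 was higher and 12 lower with library size alone. UMPS, which completes UMP synthesis, had a log2 fold change of -1.08 (SE 0.08) and CTPS1, a CTP synthase, -0.64 (SE 0.07). RRM2, the small subunit of ribonucleotide reductase, rose, with 1.08 (SE 0.10), and its relative RRM2B had -0.39 (SE 0.14). Without untreated library 3 the number lower was 5. The named genes of both nucleotide lists other than PRPS1 stayed called in the same direction with library size alone.

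NADPH has other sources, and of 13 such genes tested 5 rose and 1 fell, with a median of 0.06. Library size alone gave 3 higher and 7 lower. IDH1, the cytosolic isocitrate dehydrogenase that makes NADPH, fell from 98.1 ± 6.17 to 43.1 ± 1.56 CPM, a log2 fold change of -1.19 (SE 0.06). Its mitochondrial relative IDH2 rose, with 0.60 (SE 0.08), as did the mitochondrial folate enzymes MTHFD2, with 0.61 (SE 0.06), and MTHFD1L, with 0.78 (SE 0.07).

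On the side of NADPH use, 4 of 16 tested reductases and synthases rose and 8 fell, with a median of -0.23, and 1 was higher and 12 lower with library size alone. TXNRD1, thioredoxin reductase, fell from 560 ± 4.58 to 313 ± 19.9 CPM, a log2 fold change of -0.84 (SE 0.05). FASN, fatty acid synthase, fell as well, with -0.55 (SE 0.07).

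Of 15 genes outside the pathway known as targets of NRF2, the transcription factor of the oxidative stress response, 3 rose and 7 fell, with a median of -0.06, and 1 was higher and 12 lower with library size alone. SLC7A11, the cystine importer, fell from 59.6 ± 4.32 to 21.1 ± 4.03 CPM, a log2 fold change of -1.50 (SE 0.17). SRXN1, sulfiredoxin, had -0.70 (SE 0.09) and TXNRD1, which is in both this list and the one before, fell as given above. FTH1, the ferritin heavy chain, rose, with 1.08 (SE 0.08). The members PGD, TKT and TALDO1, themselves often named as targets of this factor, had log2 fold changes of 0.23, 0.43 and 0.05. All named genes in these 3 lists passed an adjusted p of 0.05 in edgeR's quasi-likelihood test and kept that direction with library size alone.

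**Figure D5:**
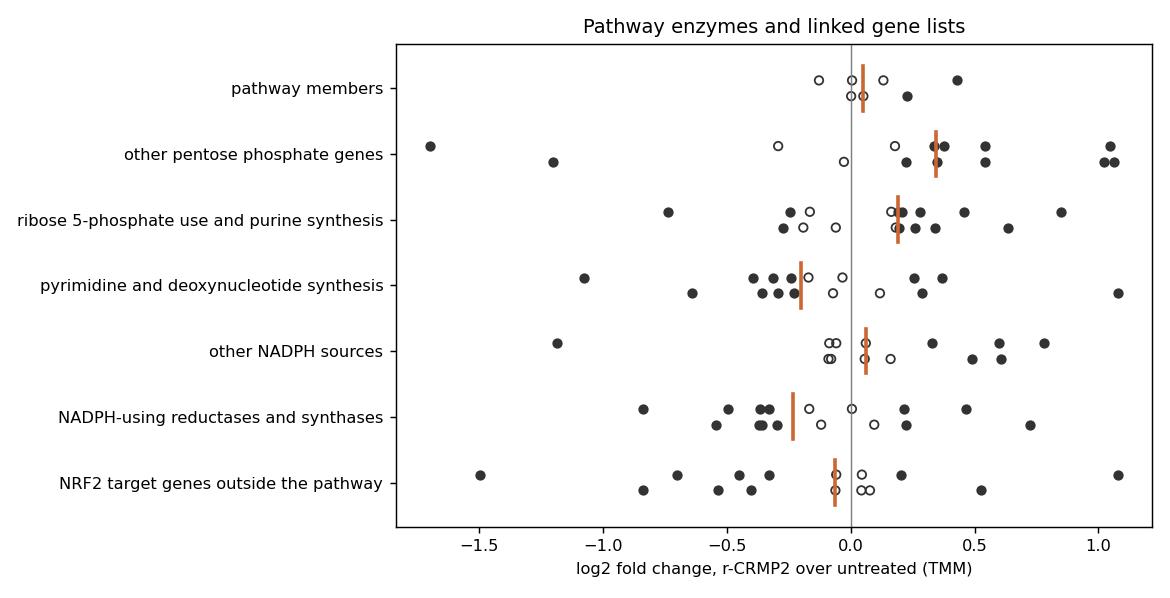
Log2 fold change of r-CRMP2 over untreated with TMM scaling for each tested gene (points, filled where the adjusted p was under 0.05 in edgeR) in the member list and 6 linked lists, with a bar at the median of each. The members lie between -0.13 and 0.43. The list of other pentose phosphate genes, which includes shared glycolytic enzymes, runs from -1.70 for TIGAR to 1.06 for the aldolase ALDOC. With library size alone the median of all genes moves from -0.03 to -0.34.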

How the data were processed

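Polyadenylated RNA of 3 untreated and 3 r-CRMP2 libraries was sequenced. For each library the authors deposited raw read counts per gene, the gene length and TPM values. Recomputing TPM from counts and lengths gave the deposited values to within 4.72e-06. The submitters' processing notes name FastQC, HISAT2, DESeq2 and build hg19. The counting tool, the annotation and the use of strand are not given in the sources used here. Depth was between 21888530 and 25711353 counts per library.

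Groups were tested on counts by the quasi-likelihood method of edgeR (4.0.16, in R 4.3.3) after TMM normalization and filterByExpr, which left 16222 genes, with Benjamini-Hochberg adjustment over all of them and thresholds of 0.05 and a log2 fold change of 1. Standard errors come from log2 CPM (prior count 2) between replicates. Ratios were compared with exact permutation tests (SciPy 1.17.1). The members and lists were chosen with earlier results of these data known. All members were named, and of each linked list up to 4 called genes with the largest change and a mean of at least 5 CPM, except for a few that are not reported here.

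The alternatives were DESeq2 (1.42.0), scaling by RLE or by library size only, a filter of at least 10 counts in every library or none, a replicate block, leaving out each library, shares without division by length, and upper-quartile scaling, which was added after seeing the data. Replicates with the same number in both groups did not deviate together (correlations of -0.02, 0.0038 and -0.03 across genes).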

Additional observations from a re-analysis of the deposited data

How the results depend on the processing

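Scaling was the choice that mattered most. With library size alone the log2 fold changes were -0.44 for H6PD, which was then called, -0.31 for PGLS, -0.083 for PGD, -0.31 for RPIA, -0.18 for RPE and -0.26 for TALDO1, all below 0, with 1 member higher and 4 lower. In the linked lists the median was then 0.032 for other pentose phosphate genes (4 higher, 4 lower). Ribose 5-phosphate use had -0.12 (2 higher, 6 lower) and pyrimidines had -0.51 (1 higher, 12 lower). The medians were -0.25 for NADPH sources (3 higher, 7 lower) and -0.54 for NADPH use (1 higher, 12 lower). For NRF2 targets the median was -0.37 (1 higher, 12 lower). These shifts follow from the construction of the setting, which moved the median of all genes from -0.03 to -0.34. Under it 13.4% of all genes tested were called higher and 52.1% lower. For the other changes the cause was not tested. PGLS and RPIA, whose changes were near 0, had -0.046 and -0.042 with upper-quartile scaling, -0.0068 and -0.0030 with no filter on low counts, and -0.014 and -0.010 with at least 10 counts in every library. Upper-quartile scaling gave medians of 0.14 for ribose 5-phosphate use, 0.014 for NADPH sources, -0.28 for NADPH use and -0.11 for NRF2 targets. Without the filter the medians were 0.19 for other pentose phosphate genes, 0.10 for NADPH sources and -0.31 for NADPH use, and at least 10 counts in every library left 1 other pentose phosphate gene lower. Leaving out 1 library gave ranges from -0.032 to 0.051 for PGLS, -0.14 to 0.13 for RPIA and -0.018 to 0.12 for TALDO1, none of them called, and from 0.41 to 0.46 for TKT and 0.20 to 0.28 for PGD, both called each time. In the lists it gave 1 to 2 other pentose phosphate genes lower, 3 to 5 of ribose 5-phosphate use lower, 5 to 9 of pyrimidines lower, and medians from 0.047 to 0.10 for NADPH sources, -0.24 to -0.19 for NADPH use and -0.11 to -0.017 for NRF2 targets. The replicate block gave 0.43 for TKT, 0.23 for PGD and -0.0037 for RPIA, and changed no call of a member; the labels share only numbers, so no pairing was assumed. Without division by gene length the shares in untreated and r-CRMP2 libraries were 72.9% and 77.3% for TKT and 13.8% and 11.3% for TALDO1. They were 6.71% and 6.20% for PGD, 1.98% and 1.56% for PGLS and 2.08% and 1.79% for RPE. For RPIA they were 0.68% and 0.54%, and for H6PD 1.84% and 1.32%. Of 507 alternative values, 437 were labelled as unchanged, by rules that differed between results. Fold changes of members had to keep their direction and side of the threshold, and ratios only their direction. Medians and shares had to move by less than the spread between replicates. Counts had to stay within a set factor of the main value, so that 12 genes lower against 8 passed. Depth limits TKTL1, with 8 counts in all, and the low count of RPIA.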
